A study of Homo sapiens with 2 samples.

Results

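The genes described here are the LIN28 proteins and the core enzymes of microRNA maturation: LIN28A, LIN28B, DROSHA, DGCR8, XPO5, DICER1, TARBP2, ZCCHC11, ZCCHC6 and DIS3L2. These 10 genes were chosen by symbol in a deposited table of 25436 gene symbols, and each matched 1 row under the name given here. Their levels were measured in HuES53 and HuES64, human embryonic stem cell lines that were diploid, undifferentiated and below passage 20, with no treatment named in the labels. Both were derived from in vitro fertilized embryos and were the controls of a study on haploid stem cells. Polyadenylated RNA of each line was sequenced as 1 library, so no value has a replicate error, no test was possible, and each difference describes these 2 libraries only.

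MicroRNAs are short RNAs that guide Argonaute proteins to messenger RNAs and lower their output. The nuclear Microprocessor, made of DROSHA and DGCR8, cuts a hairpin from a long primary transcript, XPO5 exports the hairpin, and DICER1 with its partner TARBP2 trims it to the mature form. LIN28A and LIN28B are RNA-binding proteins of embryonic and germ cells that bind the hairpins of the let-7 family. LIN28A recruits ZCCHC11 (TUT4) or ZCCHC6 (TUT7), which add uridines to the hairpin, and the exonuclease DIS3L2 degrades the tailed RNA. Low let-7 is a known feature of pluripotent cells, and LIN28A is among the factors first used to reprogram human somatic cells.

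The sequences that LIN28 and let-7 recognize are shown first, because they define what these genes act on. LIN28 zinc knuckles bind a GGAG element near the end of the hairpin loop. In the RefSeq hairpins (GRCh38.p14), the letters GGAG, searched on the RNA strand alone, occurred between the mature arms in 9 of the 12 let-7 family hairpins and were absent from let-7a-3, let-7b and miR-98. For let-7f-2, whose entry holds only its 5p arm, the stretch after that arm was searched. The same letters occurred anywhere in 43.4% of all 1560 hairpins, so a match alone is only a description. Below, 2 hairpins with the element in capitals are followed by 2 without it. They lie on chromosome 9 from 94175957 to 94176036 on the plus strand (let-7a-1), chromosome 3 from 52268278 to 52268361 on the minus strand (let-7g), and on the plus strand of chromosome 22 from 46112749 to 46112822 (let-7a-3) and from 46113686 to 46113768 (let-7b).
let-7a-1: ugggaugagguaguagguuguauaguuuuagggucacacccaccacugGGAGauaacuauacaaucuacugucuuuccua
let-7g: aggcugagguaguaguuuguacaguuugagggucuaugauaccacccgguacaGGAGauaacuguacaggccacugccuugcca
let-7a-3: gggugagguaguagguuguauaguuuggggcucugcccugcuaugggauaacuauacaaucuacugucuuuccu
let-7b: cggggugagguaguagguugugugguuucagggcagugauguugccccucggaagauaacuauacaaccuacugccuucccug

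The 12 let-7 family loci encode 9 distinct 5p sequences, and all share 1 seed, bases 2 to 8 from the 5′ end, shown in capitals for 3 of them. The seed sets which messenger RNAs the family can bind.
hsa-let-7a-5p: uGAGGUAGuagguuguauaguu
hsa-let-7g-5p: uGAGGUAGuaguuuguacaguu
hsa-miR-98-5p: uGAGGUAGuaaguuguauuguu

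LIN28B is itself a known let-7 target. The letters CTACCTC, which pair with the seed, were searched on the sense strand of 1 GENCODE 29 3′ UTR per gene. LIN28B held 4 matches in a 3′ UTR of 4549 bases, LIN28A held 1 in 3264 bases and TARBP2 held 1 in 283 bases. The other 7 members held none in the transcript searched. Among all 19093 coding genes with a 3′ UTR, 9.33% held at least 1 match, and 0.168% held 3 or more. Their median 3′ UTR was 1030 bases, shorter than those of LIN28B and LIN28A, so these shares are not matched for length. The 4 LIN28B stretches and that of LIN28A are shown with the match in capitals, which includes the A that completes an 8-base match where there is one.
LIN28B, position 44 of the 3′ UTR: cccggttgcaaagtCTACCTCAtg
LIN28B, position 2471: actgatgatagtaaCTACCTCtga
LIN28B, position 2653: tttacagcaaaaggCTACCTCAta
LIN28B, position 4092: aatgatggtgttgaCTACCTCttg
LIN28A, position 905: cacagcctattgaaCTACCTCAtt

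Values are FPKM, fragment numbers divided by transcript length and library depth, which puts different genes on a common scale. The difference between the libraries still varied with GC content and transcript length (below), which limits comparisons between unlike genes. Differences were taken as log2(FPKM + 1), HuES53 minus HuES64. The added 1 FPKM makes the differences of low genes smaller than the plain ratio. The comparison covers the 13790 genes whose mean over the lines reached 1 FPKM, and all 10 members passed. Steps between low values of single-exon genes put 1 FPKM over 1 kb at about 18.8 fragments in HuES53 and 15.4 in HuES64, a depth ratio of 1.22. By this estimate the members rested on 245 to 30794 fragments per library. Counting intervals given below use it at 95%, follow the plain ratio, and cover counting error only, not the spread between cultures.

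Both lines carried the core pluripotency factors at high levels, POU5F1 at 1053 and 1381 FPKM and SOX2 at 114 and 122 FPKM in HuES53 and HuES64. Lineage markers were not equal. The 6 endoderm markers summed to 651 FPKM in HuES53 and 164 in HuES64. CER1 alone gave 543 and 104 FPKM of this, the other 5 summed to 108.2 and 60.4, and SOX17 was lower in HuES53 (6.89 and 10.6 FPKM). The 5 mesoderm markers summed to 26.9 and 14.4, and the 5 trophoblast markers to 11.6 and 7.42. The 5 neuroectoderm markers summed to 332 and 357 FPKM, most of it TUBB3, with SOX1 at 0.0136 and 0.052. The 7 fibroblast markers summed to 1040 and 1190 FPKM, with DCN at 0.199 and 0.438. VIM alone gave 588 and 736 FPKM of this, and the rest summed to 453 and 454. NEUROG2 (neuroectoderm) was listed at 0 in HuES53, and CGA and ELF5 (trophoblast) in HuES64. Their part in the differences below was not tested.

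LIN28A was by far the most abundant member in both lines. Its values were 430 FPKM in HuES53 and 448 FPKM in HuES64, above 98.6% and 98.3% of the genes tested. Its locus covers chromosome 1 from 26737269 to 26756219, in the build of the deposited table. The levels were close, with a difference of -0.06 and a plain HuES53 to HuES64 ratio of 0.960 (counting interval 0.945 to 0.976). Only 11.001% of all genes lay nearer to equality. Over both lines, the genes nearest to LIN28A in log2(FPKM + 1) were PODXL (417 and 450 FPKM), MYL12B (423 and 461 FPKM) and PDLIM1 (448 and 442 FPKM), out of 18221 compared. Such likeness rests on only 2 libraries.

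LIN28B, the paralog on chromosome 6 (105404923 to 105531206), showed the largest difference of the 10 genes in log2(FPKM + 1). By plain ratio it was level with ZCCHC11 (both 1.88). LIN28B stood at 32.3 FPKM in HuES53 and 17.1 FPKM in HuES64, a difference of 0.88. The plain ratio was 1.88 (counting interval 1.77 to 2.01). Of all genes tested, 5.82% lay farther from equality. The LIN28A level was 13.3 times that of LIN28B in HuES53 and 26.1 times in HuES64, so the balance of the paralogs differed although LIN28A differed little in deposited FPKM. LIN28A and LIN28B are unlike in GC content (48.5% and 38.1%). With a trend in GC content and length removed (below), their differences were -0.22 and 0.54. LIN28B made up 6.98% of the summed LIN28 FPKM in HuES53 and 3.68% in HuES64, while the sums were 463 and 465 FPKM. The genes nearest to LIN28B in level were ETV5 (33.0 and 17.8 FPKM), PSME4 (32.6 and 18.8 FPKM) and LBR (33.9 and 18.5 FPKM).

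**Figure D1:**
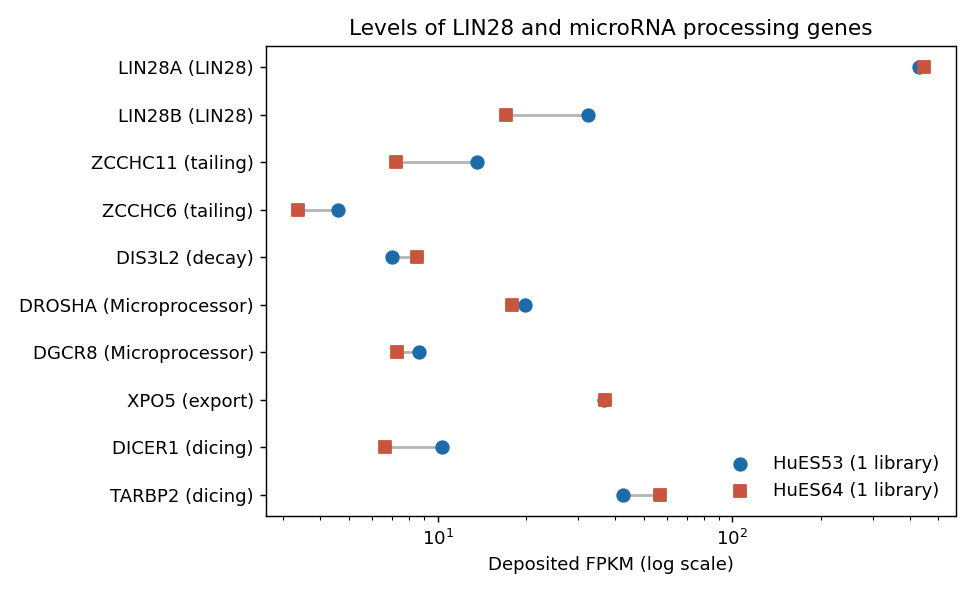
Deposited FPKM (log axis) of the 10 genes, with 1 point per library (circles, HuES53; squares, HuES64) and a grey line joining the lines' values. LIN28A stands near 430 to 448 FPKM in both, and the widest gaps are those of LIN28B and ZCCHC11.

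Of the enzymes that tail and destroy let-7 hairpins, both uridylyltransferase genes were higher in HuES53 and the nuclease gene was higher in HuES64. ZCCHC11 (chromosome 1, 52888947 to 53018762) had 13.6 FPKM in HuES53 and 7.25 FPKM in HuES64, a difference of 0.83 with a plain ratio of 1.88 (counting interval 1.71 to 2.07). ZCCHC6 (chromosome 9, 88902648 to 88969402) was the lowest member, at 4.599 and 3.356 FPKM, a difference of 0.36 and a ratio of 1.37 (1.17 to 1.61). ZCCHC11 was thus the more abundant of these related enzymes in both lines, at 2.97 times ZCCHC6 in HuES53 and 2.16 times in HuES64. DIS3L2 (chromosome 2, 232826293 to 233201908) had 6.996 FPKM in HuES53 and 8.492 FPKM in HuES64, a difference of -0.25 and a ratio of 0.824 (0.716 to 0.947).

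Both Microprocessor genes were somewhat higher in HuES53. DROSHA, the nuclease (chromosome 5, 31400601 to 31532282), had 19.8 FPKM in HuES53 and 17.8 FPKM in HuES64, a difference of 0.14 and a ratio of 1.11 (1.04 to 1.19). DGCR8, its RNA-binding partner (chromosome 22, 20067755 to 20099400), stood at 8.65 and 7.31 FPKM, a difference of 0.21 and a ratio of 1.18 (1.05 to 1.33). DROSHA exceeded DGCR8 by 2.29 times in HuES53 and 2.44 times in HuES64, so their ratio was nearly the same. XPO5, the export receptor (chromosome 6, 43490068 to 43543812), had the closest values of all members, at 36.8 and 36.9 FPKM, and 0.674% of all genes lay nearer to equality. It was the only member whose counting interval (0.950 to 1.05) included equal levels.

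DICER1 and its partner gene TARBP2 differed in opposite directions. DICER1 (chromosome 14, 95552565 to 95623759) had 10.4 FPKM in HuES53 and 6.61 FPKM in HuES64, a difference of 0.58, or 1.49-fold, and a plain ratio of 1.57 (1.45 to 1.69). TARBP2, whose double-stranded RNA-binding protein holds DICER1 in the loading complex (chromosome 12, 53894705 to 53900215), stood at 42.7 and 57.0 FPKM, a difference of -0.41 and a ratio of 0.750 (0.696 to 0.807). The TARBP2 level was therefore 4.12 times that of DICER1 in HuES53 and 8.62 times in HuES64. These genes are unlike in GC content and length. With a trend in both removed by the longest transcript of each gene (below), the differences were 0.19 for DICER1 and -0.053 for TARBP2. By the median transcript of each gene they were 0.37 and -0.20, so their size depends on the transcript used.

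In order of level, LIN28A, TARBP2 and XPO5 led and ZCCHC6 came last in both lines, and these 4 kept their ranks. The others ran LIN28B, DROSHA, ZCCHC11, DICER1, DGCR8 and DIS3L2 in HuES53. In HuES64 they ran DROSHA, LIN28B, DIS3L2, DGCR8, ZCCHC11 and DICER1. Neighbours such as DROSHA and LIN28B in HuES64 (17.8 and 17.1 FPKM) cannot be ordered without replicates. The loci of DICER1, DGCR8 and DIS3L2 overlap other rows of the table, all of them microRNAs apart from TRMT2A at DGCR8, and the other 7 loci overlap none.

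**Figure D2:**
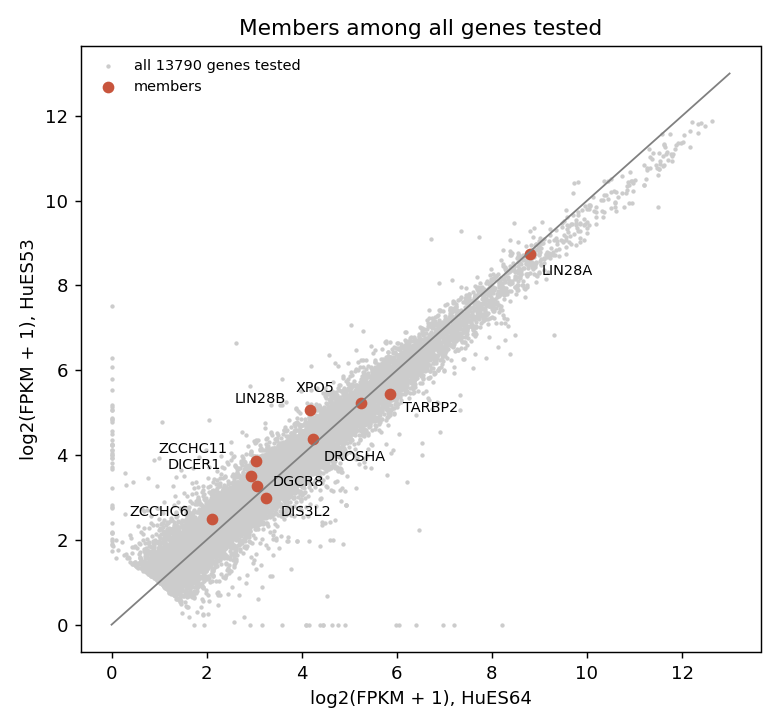
Log2(FPKM + 1) of the 13790 genes tested (grey) and the 10 members (red), HuES64 on the horizontal and HuES53 on the vertical axis; the line marks equal levels. LIN28B (32.3 against 17.1 FPKM) and ZCCHC11 (13.6 against 7.25 FPKM) lie above the line, and TARBP2 (42.7 against 57.0 FPKM) lies below it.

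As a group, 6 of the 10 genes were higher in HuES53, against 52.5% of all genes tested, and the median difference was 0.18, against 0.03. LIN28B and ZCCHC11, 2 of 10, differed by at least 1.5-fold, as did 17.1% of all genes. Both were higher in HuES53, the direction of 9.22% of all genes at that size. No member was at least 1.5-fold higher in HuES64, as 7.84% of all genes were, and no member reached 2-fold in either direction (3.86% of all genes). The members' share past 1.5-fold was thus close to that of all genes and sets the group apart in no way. The members' differences had a standard deviation of 0.43, against 0.56 for all genes. TPM scaling, which gives each library the same sum, moved the median of all genes by over 0.1, from 0.03 to 0.25. Relative to that median the members moved little, from 0.85 to 0.87 for LIN28B, whose TPM difference was 1.13. LIN28A (0.19) and XPO5 (0.24) then lay above 0, although below the median of all genes, and 4 members passed 1.5-fold, as did 26.9% of all genes.

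The differences of the members followed a trend that ran through the whole table. Across the 12911 tested genes with a GENCODE transcript, the difference had a Spearman's rho of -0.50 with GC content and 0.44 with transcript length, genes not being independent. In 10 equal groups by GC content, the median difference ran from 0.32 in the group with the least GC (median 37.1%) to -0.32 in that with the most (64.3%). The members span this range. LIN28B has 38.1% GC, DICER1 39.2%, ZCCHC11 40.3% and ZCCHC6 40.9%, and these 4 had the largest positive differences. TARBP2, with 60.8% GC and the shortest transcript, 1867 bases, had the lowest difference. Over the 10 members, which share both libraries, rho was -0.85 with GC content and 0.85 with length.

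**Figure D3:**
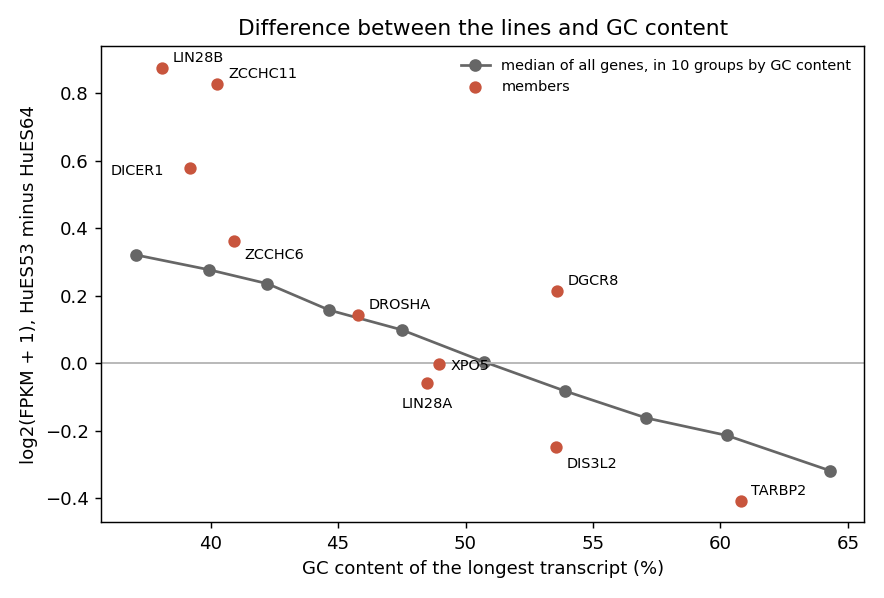
Difference in log2(FPKM + 1), HuES53 minus HuES64, against GC content of the longest transcript (%), for the 10 members (red) and as medians of all genes in 10 equal groups by GC content (grey line). The grey line falls from 0.32 to -0.32; LIN28B, ZCCHC11 and DICER1 lie above it at its low-GC end and TARBP2 lies below it at 60.8% GC.

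The trend was removed by subtracting medians over bins of GC content and length, taken from the longest transcript of each gene. LIN28B and ZCCHC11 then had the largest differences, smaller than before. LIN28B was at 0.54, or 1.46-fold, and 11.6% of all genes lay farther from equality. ZCCHC11 was at 0.46, or 1.37-fold, with 16.6% of genes farther away. Neither passed 1.5-fold, which 9.97% of all genes still did in either direction. DICER1 was then at 0.19, ZCCHC6 at 0.037 and TARBP2 at -0.053. DGCR8 (0.19) and DIS3L2 (-0.27) moved little, DROSHA crossed to -0.072, and LIN28A (-0.22) and XPO5 (-0.15) moved farther below 0. In all, 7 members came closer to equality, 9 kept their sign and the median became -0.0078. Of the 10, 5 were then higher in HuES53, as were 50% of all genes. The median transcript of each gene, used instead of the longest, put ZCCHC11 at 0.67, past 1.5-fold, and LIN28B at 0.53. It put DICER1 at 0.37, TARBP2 at -0.20 and LIN28A at -0.30. The part of GC content and length in the members' differences was not tested beyond these removals.

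**Figure D4:**
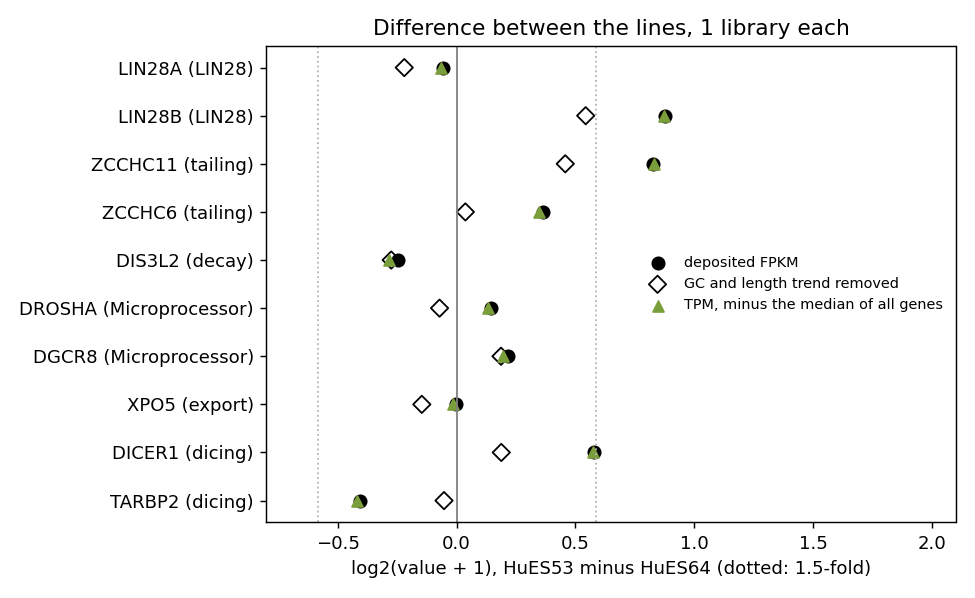
Difference in log2(value + 1), HuES53 minus HuES64, for each member: deposited FPKM (filled circles), with the GC and length trend removed (open diamonds) and TPM minus the median of all genes (triangles); dotted lines mark 1.5-fold. LIN28B goes from 0.88 to 0.54 and DICER1 from 0.58 to 0.19 with the trend removed, while TPM values minus that median nearly cover the deposited ones.

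Other genes of the pathway were described by lists, each to be read against all genes tested, of which 52.5% were higher in HuES53 (50% with the trend removed) and 17.1% differed by 1.5-fold. Trend-removed values of the lists use the longest transcript of each gene. By the median transcript, the medians were higher for all lists but the exonucleases, such as 0.12 for the Argonaute list and 0.21 for let-7 targets (last section). Among 15 cofactors of the Microprocessor, 11 were higher in HuES53, with a median difference of 0.14, and none differed by 1.5-fold. With the trend removed 6 of 15 were higher there, and the median was -0.0043. The highest were the RNA-binding proteins HNRNPA2B1 (432 and 336 FPKM) and HNRNPA1 (338 and 401 FPKM) and the double-stranded RNA-binding complex subunit ILF2 (311.6 and 373.1 FPKM). TARDBP, another RNA-binding protein, stood at 49.3 and 38.6 FPKM. The list median level was 133 FPKM in HuES53 and 106 in HuES64. NCBP1, a cap-binding protein named after its values were seen, was lower than DROSHA in both lines, at 14.3 and 11.5 FPKM.

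Partners of XPO5 and DICER1 differed from gene to gene. RAN, the GTPase that loads XPO5 with its cargo, stood at 675 and 782 FPKM, and ADAR, which edits double-stranded RNA, at 76.5 and 56.7 FPKM. The helicase gene DHX9 stood at 53.8 and 43.7 FPKM. NUP153, a nuclear pore protein, stood at 28.4 and 17.7 FPKM (1.57-fold, 1.25-fold with the trend removed). The median over the 5 genes was 0.29, and 0.061 with the trend removed, and 3 of 5 were higher in HuES53 either way.

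Argonaute and silencing complex genes had a median level of 13.4 FPKM in HuES53 and 10.8 in HuES64. Of 16 genes, 13 were higher in HuES53, against 52.5% of all genes, with a median difference of 0.27, and none differed by 1.5-fold. With the trend removed 8 of 16 were higher there, against 50% of all genes, and the median was -0.023. AGO1, listed as EIF2C1, stood at 8.43 and 5.38 FPKM. The nuclease SND1 (140 and 141 FPKM), TSN (52.9 and 43.6 FPKM) and its partner TSNAX (22.0 and 17.7 FPKM) were the highest, and FMR1, which encodes a translational repressor, stood at 14.95 and 10.33 FPKM. AGO2, the slicing Argonaute, named after its values were seen, stood at 4.11 and 4.06 FPKM. Both Argonautes were thus well below LIN28B in each line. SND1, TSNAX and FMR1 overlap other genes in the table.

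Of 18 deadenylation and decapping genes, which carry out silencing downstream, 16 were higher in HuES53, against 52.5% of all genes, with a median of 0.21. With the trend removed 12 of 18 were higher there, and the median was 0.051. PABPC1, the poly(A)-binding protein, stood at 873 and 757 FPKM, CNOT7 at 71.8 and 62.4, and the CCR4-NOT scaffold CNOT1 at 62.7 and 43.7. The deadenylase CNOT6L (5.34 and 3.11 FPKM) was the only gene past 1.5-fold, at 1.54-fold, and was at 1.11-fold with the trend removed. The decapping factor PATL1 stood at 14.1 and 9.35 FPKM. CNOT1 and PATL1 overlap other genes in the table.

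Relatives of ZCCHC11, ZCCHC6 and DIS3L2 gave a mixed picture. Of 7 other terminal nucleotidyltransferases, 6 were higher in HuES53, with a median of 0.38, and 5 with a median of 0.10 with the trend removed. PAPD5, a poly(A) polymerase of the nucleus, stood at 4.12 and 2.28 FPKM, 1.56-fold, and 1.17-fold with the trend removed. PAPD4 stood at 15.8 and 10.6 FPKM. PAPOLA, the canonical poly(A) polymerase, stood at 65.04 and 49.85 FPKM. TUT1, which tails U6 RNA, was the exception, at 17.1 and 20.4 FPKM. Of 16 other exonuclease genes, 8 were higher in each line, and the median was 0.017. With the trend removed 5 of 16 were higher in HuES53 and the median was -0.15, and with TPM scaling 12 of 16 were, against 72.0% of all genes. DIS3L, a cytoplasmic exosome nuclease related to DIS3L2, had 13.8 FPKM in HuES53 and 6.85 FPKM in HuES64, 1.89-fold, and 1.70-fold with the trend removed. The exosome subunit EXOSC5 stood at 44.6 and 86.1 FPKM, 1.91-fold the other way, and 1.39-fold with the trend removed. EXOSC7 (94.8 and 129 FPKM) and EXOSC8 (60.9 and 65.8 FPKM) were also among the highest. DIS3L and DIS3L2 thus lay on opposite sides of 0. PAPD5 and EXOSC8 overlap other genes in the table.

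Among 9 regulators of LIN28 and let-7, 6 were higher in HuES53, with a median of 0.39, and 5 with a median of 0.026 with the trend removed. TRIM71, an RNA-binding protein of stem cells whose transcript is also a let-7 target, had 15.3 FPKM in HuES53 and 6.54 FPKM in HuES64, 2.17-fold, and 1.73-fold with the trend removed. It was the only gene of this list past 2-fold. The deubiquitinase gene USP28 stood at 66.5 and 36.5 FPKM, 1.80-fold, and 1.52-fold with the trend removed. NANOG, a transcription factor of pluripotency, stood at 94.4 and 84.7 FPKM.

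Known let-7 target genes were mostly higher in HuES53, and their median GC content was 47.2%, against 48.9% for all genes. Their longest transcripts had a median of 4289 bases, against 3549. Of 20 genes, 15 were higher in HuES53, with a median of 0.28, and 13 with a median of 0.10 with the trend removed. HMGA1, a chromatin protein, stood at 1535 and 1710 FPKM, its relative HMGA2 at 76.5 and 51.2, and the RNA-binding protein IGF2BP3 at 82.6 and 62.2. NR6A1, an orphan nuclear receptor with 5 CTACCTC matches in its 3′ UTR, stood at 5.08 and 2.01 FPKM, 2.02-fold, and 1.77-fold with the trend removed. Only 10 of the 20 genes held a match in the transcript searched, and HMGA2 held 0 in 7421 bases. TGFBR1 stood at 11.4 and 7.21 FPKM, 1.51-fold, and 1.17-fold with the trend removed. HMGA2 and NR6A1 overlap other genes in the table.

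All genes were also grouped by their 3′ UTR matches, a grouping made after the values were seen. It rests on the transcript searched for each gene, so known targets such as HMGA2 fell among the genes without a match. The 1304 tested genes with at least 1 CTACCTC had a median difference of 0.14, against 0.024 for the 11118 without. They also had longer transcripts (median 5284 against 3467 bases) and less GC (46.8% against 49.2%). With the trend removed both medians were at or near 0, -0.00063 with a match and 0 without. The 504 genes with the 8-base match had medians of 0.14 before and -0.012 after.

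Cold shock domain proteins share an RNA-binding fold with LIN28. Of 6 genes, 1 was higher in HuES53, with a median of -0.22, and 2 with a median of -0.12 with the trend removed. YBX1 stood at 698 and 816 FPKM, and YBX3, listed as CSDA, at 189 and 219. CARHSP1 stood at 62.6 and 79.2 FPKM and YBX2 at 10.9 and 14.9. No gene of this list differed by 1.5-fold. With TPM scaling 4 of 6 were higher in HuES53, against 72.0% of all genes, and the list median was 0.025, below the 0.25 of all genes.

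**Figure D5:**
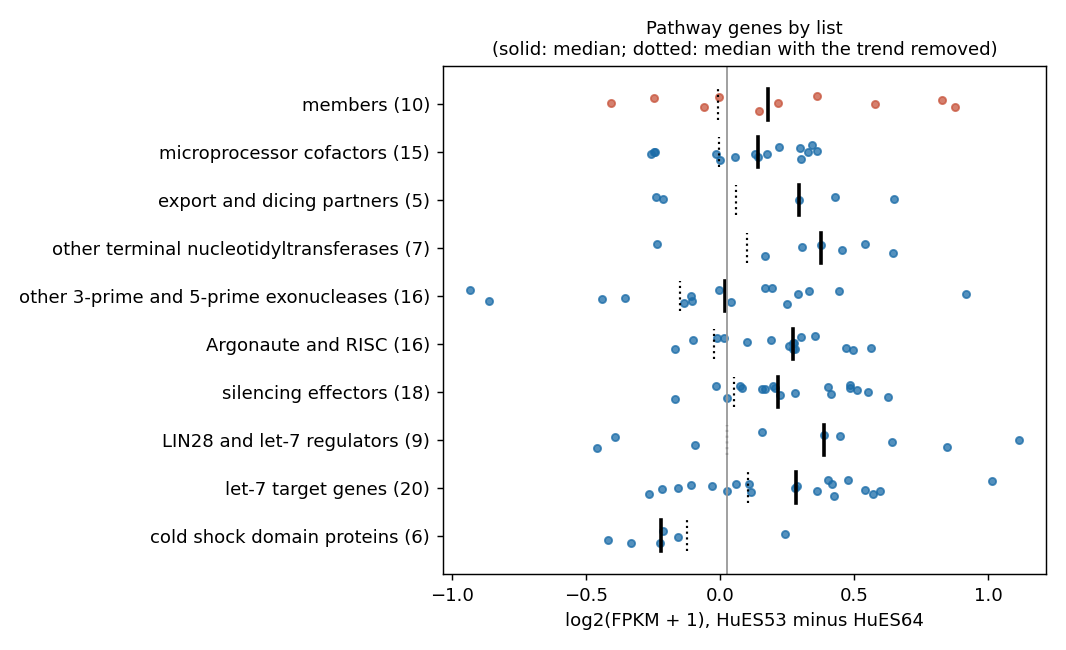
Difference in log2(FPKM + 1), HuES53 minus HuES64, of each gene (points) in the 10 members and 9 pathway lists, with the number of genes in brackets; points are spread vertically for visibility, and the vertical grey line is the median of all genes tested, 0.03. Solid bars mark list medians and dotted bars the medians with the GC and length trend removed by the longest transcript, which lie nearer 0 for all lists but the exonucleases (0.017 and -0.15).

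The microRNAs themselves were not measured by these libraries. All 20 loci of the let-7 family, the miR-302 cluster and the miR-371 cluster were listed at 0 in both lines, as were 1353 of the 1366 microRNA rows in the table. Mature microRNAs and their hairpins carry no poly(A) tail, and such rows span short loci, so a 0 says nothing about their level. LARP7, whose locus spans the miR-302 cluster on the opposite strand and so is not its host transcript, stood at 129 and 134 FPKM. Of the host genes, WDR82, which holds let-7g, stood at 40.5 and 31.2 FPKM, and HUWE1, which holds let-7f-2 and miR-98, at 24.4 and 20.0 FPKM. MIRLET7BHG, the non-coding host of let-7b and let-7a-3, was near 0, at 0.0471 and 0.0768 FPKM, and was named after its values were seen.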

How the data were processed

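The deposited table gives FPKM values made by the authors, with 25593 rows and 1 column per line; no column belonged to another sample. TopHat2 2.0.4 and Cufflinks 2.0.2 are listed, with no role, per the submitters' processing notes. For the build, annotation and strand setting the sources used here give nothing. Loci count from 0, since 1036 of 1068 microRNA rows then matched RefSeq hairpin lengths; only 4 starts matched GRCh38.p14, so positions of the 2 sources are not mixed. The 136 chromosome Y rows were left out and 21 repeated symbols summed.

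With 1 library per line, no test was run. Depth was fitted to single-exon genes without overlapping loci, with fragment length searched in steps (210 bases in the fit taken for both lines). Of their low values, 75 of 100 in HuES53 and 70 of 82 in HuES64 lay within 0.03 of a whole fragment. The fit taken had the largest step among those with a share near the highest found. These shares are therefore no independent check of it. Members' fragments then used 1 GENCODE 29 transcript each. The trend used the longest transcript per symbol (93.6% of genes tested), 20 bins each of GC content and length, and 5 rounds. The removal was tried on simulated data in which GC content and length were drawn independently. That trial cannot show how it does where GC content and length are related. For 3′ UTRs, the longest was taken among basic coding transcripts with at least 50% of the longest coding length; other transcripts were not searched. Analysis used Python 3.11.15 with pandas 2.3.3.

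The members and lists were chosen with earlier results of these data known. Named genes are the members, and in each list the 3 highest, the 2 most different and any past 2-fold, plus the 3 nearest genes to LIN28A and LIN28B. There were 10 alternatives fixed at the start and 1 added after seeing the data. The values of 1 gene that entered the counts and median of a list are not reported here.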

Additional observations from a re-analysis of the deposited data

How the results depend on the processing

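No paired analysis was possible because each line has 1 library. A median is called stable here when it moved by less than 0.1. LIN28B, ZCCHC11, DICER1, DGCR8 and ZCCHC6 stayed above 0 and TARBP2 and DIS3L2 below 0 under every alternative run for them. LIN28B ranged from 0.53 to 1.13 and ZCCHC11 from 0.46 to 1.09. Reversed were LIN28A (0.19) and XPO5 (0.24) with TPM scaling, and DROSHA with the trend removed (-0.072, or -0.10 by the median transcript). TPM scaling gave 4 members and 3708 genes past 1.5-fold, and medians of 0.42 (members), 0.39 (Microprocessor cofactors), 0.54 (export and dicing), 0.50 (Argonaute), 0.46 (silencing effectors), 0.62 (nucleotidyltransferases), 0.26 (exonucleases), 0.63 (regulators), 0.53 (let-7 targets) and 0.025 (cold shock), which all moved with the median of all genes (0.25). Removing the trend left 0 members and 1287 of 12911 genes past 1.5-fold, against 2 members and 2352 of 13790 genes. It gave medians of -0.0078 (members), -0.0043 (cofactors), 0.061 (export and dicing), -0.023 (Argonaute), 0.051 (silencing), 0.10 (nucleotidyltransferases), -0.15 (exonucleases), 0.026 (regulators) and 0.10 (let-7 targets). The median transcript of each gene, added after seeing the data, gave 1 member (ZCCHC11, 0.67) and 1459 of 12911 genes past 1.5-fold. Medians were then -0.020 (members), 0.14 (export and dicing), 0.12 (Argonaute), 0.14 (nucleotidyltransferases), -0.17 (exonucleases), 0.050 (regulators) and -0.10 (cold shock). Those of the cofactors (0.086), silencing effectors (0.12) and let-7 targets (0.21) were stable under this removal. A mean of at least 5 FPKM left 9 members, 1459 of only 9661 genes past 1.5-fold, and medians of 0.27 (regulators) and -0.0054 (exonucleases). The exonuclease median was also -0.012 with median-of-ratios scaling and -0.032 without overlapping or short loci, where the cofactor median was 0.027. With pseudocounts of 0.1 or 0.5 FPKM, DICER1 also passed 1.5-fold. The genes past it then rose as well, from 2352 to 3256 and 2812 of 13790. For these moves the cause was not tested.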
